A study of Mus musculus with 5 samples.

Results

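The 2'-5'-oligoadenylate synthetase (OAS) genes, Rsad2 and Cmpk2 encode enzymes of the cell's own antiviral defence. Arrays of mesenchymal stem cells (MSC) from mouse bone marrow, without or with exposure to activated T cells, were compared here for these genes. The members were every probe set of the deposited table with a single gene symbol that begins with Oas, or is Rsad2 or Cmpk2. This gave 9 of the 3373 probe sets and 7 of the 2190 named genes: 1 probe set each for Oas1a, Oas1b, Oas2, Oas3, Oasl1 and Cmpk2, and 3 for Rsad2. The study hybridised total RNA, as biotin-labelled cRNA, to 5 Affymetrix arrays. In 3 of them the RNA came from a primary culture of mouse bone marrow MSC grown alone. In the other 2 it came from MSC kept for 48 h in a transwell, a chamber whose membrane separates 2 cell populations but passes soluble products, with 10 times as many purified T cells, which had been stimulated with antibodies to CD3 and CD28. The titles name each array a biological repetition and do not say whether repetitions came from separate animals. The labels read here name no strain, sex or age of the mice.

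OAS enzymes are switched on by double-stranded RNA and join ATP into short 2'-5'-linked oligoadenylates, a signal that leads to decay of viral and cellular RNA. Rsad2 encodes viperin, a radical SAM enzyme that turns CTP into a nucleotide able to end viral RNA chains early. Cmpk2 encodes a mitochondrial nucleoside monophosphate kinase that phosphorylates CMP, UMP and their deoxy forms, and so stands upstream of CTP, the substrate of viperin. All are textbook interferon-stimulated genes, switched on by transcription factors, STAT2 and IRF9 among them, that act at the interferon-stimulated response element.

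Rsad2 and Cmpk2 are immediate neighbours on mouse chromosome 12 and lie on opposite strands, facing away from each other. Their promoters are shown because these genes form the pair compared below, with those of Oas1a and Oas3 as examples of the synthetases. The sequences are from RefSeq, build GRCm38.p6, where a promoter window (250 bases before to 50 after the start) was matched for 5 of the 7 genes: Cmpk2, Oas1a, Oas3, Oasl1 and Rsad2. Each is written 5′ to 3′ on the gene's own strand and ends before the outermost annotated start of the gene, except Oas1a, for which only the 30 bases before the start are shown. Capitals mark the response element core, spelled GAAANNGAAA or, on the other strand, TTTCNNTTTC.
Rsad2 (chr12:26456453-26456702, minus strand): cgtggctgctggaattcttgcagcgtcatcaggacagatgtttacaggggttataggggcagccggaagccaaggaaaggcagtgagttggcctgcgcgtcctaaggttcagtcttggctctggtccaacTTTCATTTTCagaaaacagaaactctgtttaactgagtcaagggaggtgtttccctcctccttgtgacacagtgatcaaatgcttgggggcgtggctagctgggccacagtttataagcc
Cmpk2 (chr12:26468965-26469116, plus strand): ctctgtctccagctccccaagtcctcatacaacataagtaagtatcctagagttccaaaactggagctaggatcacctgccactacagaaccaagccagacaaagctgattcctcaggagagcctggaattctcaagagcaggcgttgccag
Oas1a (chr5:120907526-120907555, minus strand): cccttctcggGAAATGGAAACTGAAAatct
Oas3 (chr5:120777685-120777909, minus strand): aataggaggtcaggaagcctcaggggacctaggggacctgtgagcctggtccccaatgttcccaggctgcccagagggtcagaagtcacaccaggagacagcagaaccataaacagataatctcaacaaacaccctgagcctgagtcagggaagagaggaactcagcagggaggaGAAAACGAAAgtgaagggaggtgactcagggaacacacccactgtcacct

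The core was found in the windows of Rsad2, Oas1a and Oas3, and in neither of those of Cmpk2 and Oasl1. The part of the window before the outermost annotated start was 250 bases in Rsad2, 231 in Oas1a and 225 in Oas3. In Cmpk2 and Oasl1 it was shorter, 152 and 153 bases. Oas1a held 2 matches that overlap by 4 bases, from -20 to -11 and from -14 to -5 relative to its start. In Rsad2 the match ran from -120 to -111 and in Oas3 from -75 to -66. Of all 32851 windows 3.44% held the core, as did 67 of the 840 genes that were higher in co-culture and had a window (7.98%) and 24 of the 902 that were lower (2.66%). The gamma-activated sequence, TTCNNNGAA, which reads the same on both strands, matched Oas1a alone of the 5, against 8.3% of all windows. The kappa B consensus, GGGNNNNNCC on either strand, matched all 5 and 50.8% of all windows. None of these matches in the 5 genes overlapped a response element core. A match is a run of letters and not a measured binding site, and its absence speaks only of these 300 bases; the windows of Rsad2 and Cmpk2 lie 12262 bases apart.

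Exposure to activated T cells came with higher values of all 9 member probe sets, and in none of them did the groups overlap. The rises spanned 0.86 to 5.08 on the log2 scale, or 1.81-fold to 33.8-fold. A 2-fold difference was reached by 6 of the 9, against 926 of the 1642 higher probe sets and 2115 of all 3373 in either direction. That count thus does not set the members apart. The median rise of the 9 was 2.49, against 1.07 over the 1642 higher probe sets of the table and -0.58 over all 3373. The values are log2 probe set summaries by RMA, a method that corrects background, equalises the arrays' distributions and combines the probes of a probe set. Differences were tested with limma, a linear model that shares the spread over probe sets, with Benjamini-Hochberg adjustment over the whole table and a threshold of 0.05. The 9 adjusted p-values ran from 0.000906 to 0.00867. They have to be read against the table itself: of its 3373 probe sets 100% passed the same test, 48.7% as higher, and in 100% the groups did not overlap, with a smallest gap of 0.34. The table thus behaves as one selected on this comparison, and neither the calls nor the separation of the groups sets the members apart. Such a selection favours large differences and small spreads, so SE and intervals may be too small. When the adjustment counted 15 times the number of tests, 205 of the 1642 higher probe sets passed, or 6.08% of all 3373. In this setting 4 member probe sets remained: those of Oas1a and Oas2 and the Rsad2 probe sets 1421008_at and 1421009_at.

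**Figure D1:**
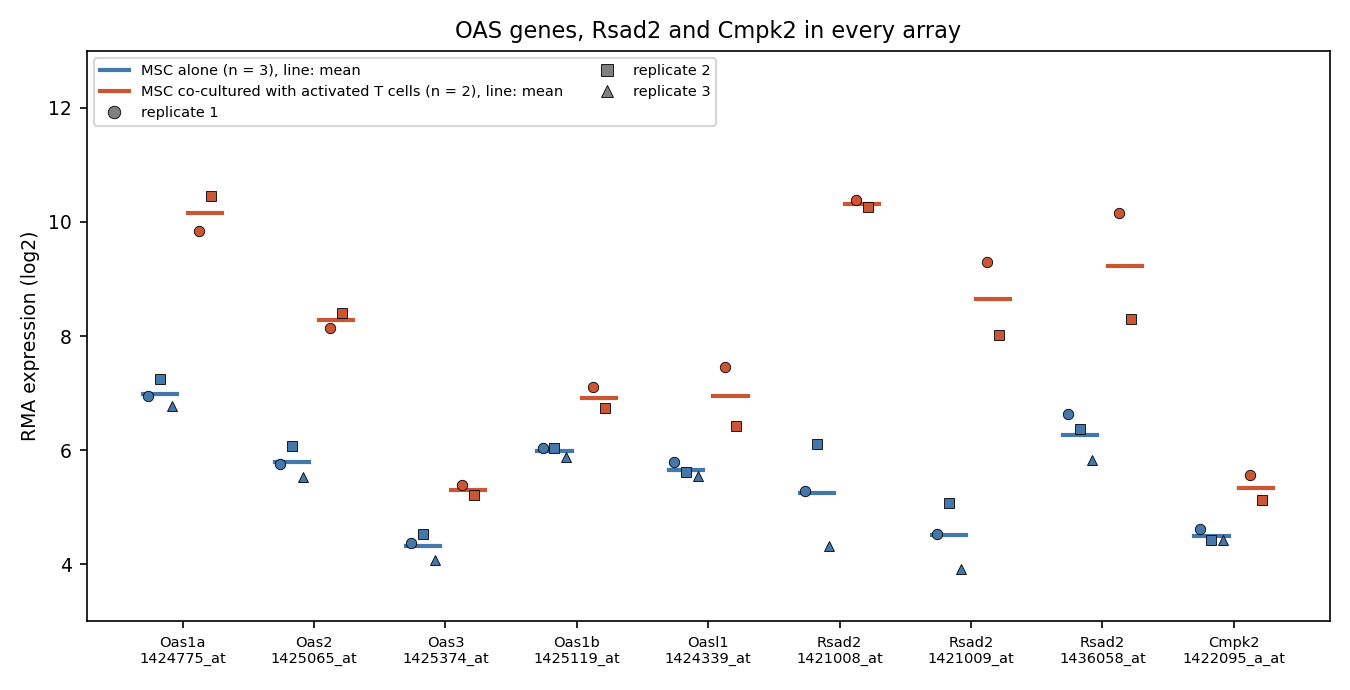
RMA expression (log2, vertical axis) of the 9 member probe sets in each of the 5 arrays. Points are arrays, with the replicate number as symbol, and lines are group means; every co-culture array lies above all 3 arrays of MSC alone, with the widest separation in Rsad2 1421008_at and the narrowest in Cmpk2.

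**Figure D2:**
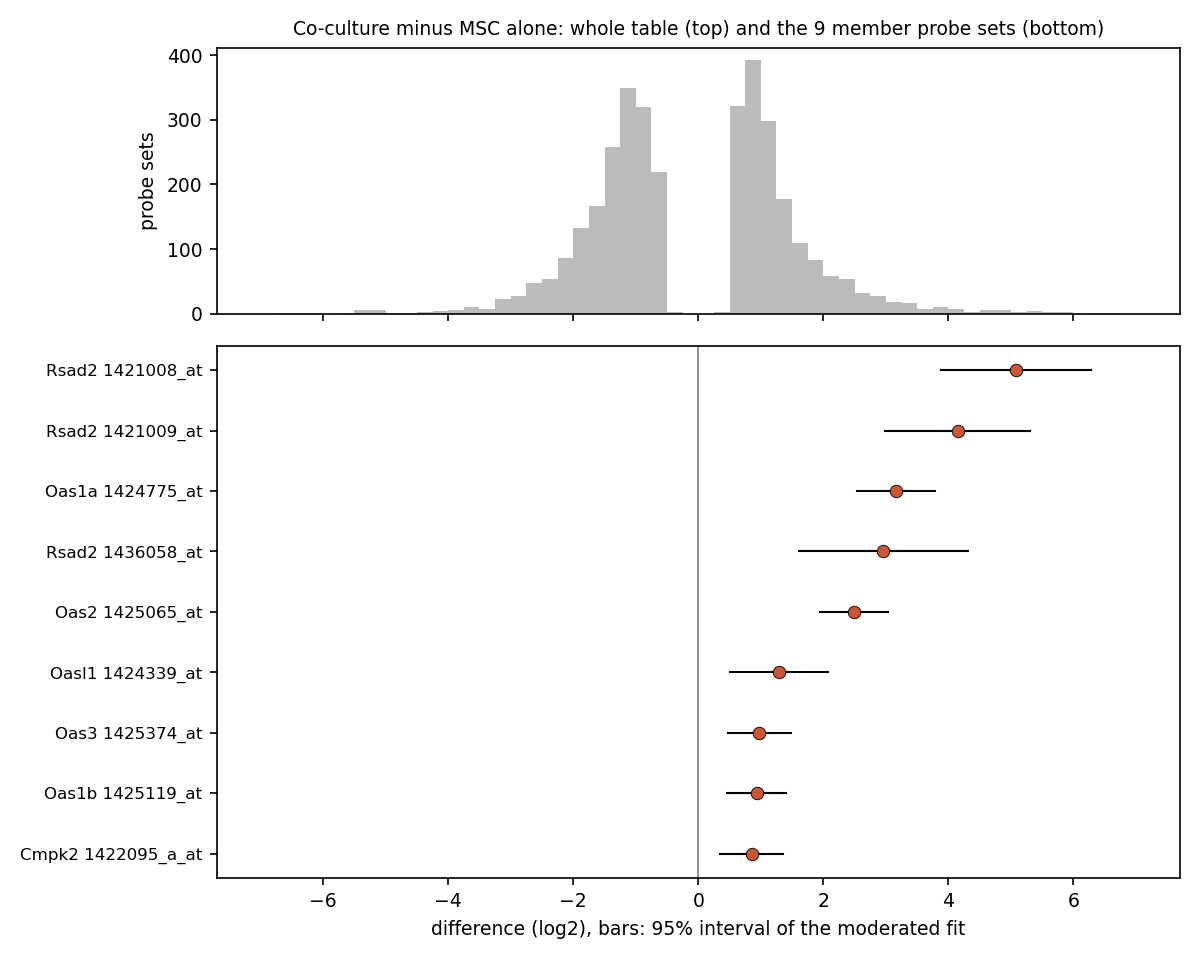
Top: number of probe sets of the whole table by co-culture minus MSC alone (log2), with an empty middle, since no probe set of the table has overlapping groups. Bottom: the 9 member probe sets on the same axis, points for the difference and bars for the 95% interval of limma's fit; 6 lie at or above 1 and 3 between 0.86 and 0.98.

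Among the synthetases the enzyme genes Oas1a and Oas2 rose most. Oas1a, encoding a small active synthetase, read 6.95, 7.25 and 6.78 in MSC alone and 9.84 and 10.46 in co-culture. The higher of the co-culture values belonged to replicate 2, and the gap between the groups was 2.60. The group means were 6.99 ± 0.24 in MSC alone (SD, n = 3) and 10.15 ± 0.43 in co-culture (SD, n = 2). The rise was 3.16 ± 0.26 (SE) on the log2 scale, or 8.94-fold, with an adjusted p of 0.000906 in limma. A larger difference was found in 70 of the 1642 higher probe sets.

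Oas2, encoding the synthetase with a paired catalytic unit, read 5.75, 6.08 and 5.54 in MSC alone and 8.15 and 8.41 in co-culture. Here too co-culture replicate 2 was the higher array. The arrays spanned 0.54 in MSC alone and 0.26 in co-culture. The rise was 2.49 ± 0.23 (SE), or 5.61-fold (adjusted p 0.00118 in limma). Leaving out any 1 array kept the rise of Oas2 between 2.36 and 2.63 and that of Oas1a between 2.85 and 3.47.

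Oas3, which encodes the largest synthetase and is the direct neighbour of Oas2 on chromosome 5, moved less. It read 4.38, 4.53 and 4.08 in MSC alone and 5.40 and 5.22 in co-culture. All 5 values were low and the groups stood 0.68 apart. The difference was 0.98 ± 0.21 (SE), or 1.97-fold, with an adjusted p of 0.00644 in limma that became 0.0965 with 15 times as many tests (range over the alternatives 0.00432 to 0.0965).

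Oas1b is the mouse gene known from resistance to flaviviruses, and RefSeq lists it in the reference strain as a transcribed pseudogene. It read 6.03, 6.05 and 5.88 in MSC alone and 7.11 and 6.74 in co-culture. The MSC arrays were within 0.17 of each other, the narrowest range of the 9 probe sets. The difference was 0.94 ± 0.19 (SE), or 1.91-fold (adjusted p 0.00621 in limma, and 0.0932 with 15 times as many tests, the ends of the range over alternatives being 0.0041 and 0.0932). The labels do not say which allele of Oas1b these cells carry.

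Oasl1 encodes an OAS-like protein that does not make oligoadenylates and is known to restrain translation of the interferon factor Irf7. It read 5.79, 5.63 and 5.56 in MSC alone and 7.46 and 6.43 in co-culture. The co-culture arrays differed by 1.03, more than the arrays of MSC alone, so the size of the rise rested on which of them was used. It was 1.29 ± 0.32 (SE), or 2.45-fold, with both arrays, 0.77 with replicate 2 alone and 1.81 with replicate 1 alone. The adjusted p in limma was 0.00867, and 0.13 with 15 times as many tests (range over the alternatives 0.00582 to 0.13).

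The rise was uneven along the OAS cluster itself. RefSeq places 10 Oas genes in a row on chromosome 5, from Oas2 through Oas3 to 8 genes of the Oas1 group, and 4 of these were in the table. Of all 12 Oas genes listed there, 7 were not analysed here: Oas1c, Oas1d, Oas1e, Oas1f, Oas1g, Oas1h and Oasl2. Members of the Oas1 group are close in sequence, so a probe set named for one may also read another, and the values of Oas1a and Oas1b are uncertain in that respect. The nearest genes outside the cluster that were in the table, Ddx54 on one side and Ptpn11 on the other, differed by 0.70 and 0.65.

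Rsad2 showed the largest rise of the 7 genes in 2 of its 3 probe sets. In 1421008_at it read 5.29, 6.11 and 4.32 in MSC alone and 10.38 and 10.27 in co-culture. The MSC arrays were spread over 1.79, the co-culture arrays over 0.11, and the gap between the groups was 4.15. The group means were 5.24 ± 0.90 in MSC alone (SD, n = 3) and 10.32 ± 0.08 in co-culture (SD, n = 2). The rise was 5.08 ± 0.50 (SE), or 33.8-fold (adjusted p 0.00132 in limma), and 11 of the 1642 higher probe sets had a larger difference. Without any 1 array it stayed between 24.6-fold and 45.8-fold.

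The second Rsad2 probe set, 1421009_at, read 4.53, 5.07 and 3.92 in MSC alone and 9.30 and 8.02 in co-culture. Its MSC arrays kept the order seen in the first, replicate 2 highest and replicate 3 lowest, while its co-culture arrays were 1.28 apart. The rise was 4.15 ± 0.48 (SE), or 17.8-fold (adjusted p 0.00204 in limma). It was 11.4-fold without co-culture replicate 1 and 27.6-fold without replicate 2. Its values in MSC alone were low, with a mean of 4.51 and no detection call, so the fold is uncertain.

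The third, 1436058_at, read 6.64, 6.37 and 5.82 in MSC alone and 10.16 and 8.30 in co-culture. The co-culture arrays were 1.86 apart, and 99.3% of the higher probe sets of the table had a smaller gap between these arrays. The rise was 2.96 ± 0.55 (SE), or 7.76-fold (adjusted p 0.00546 in limma). It was 4.07-fold without co-culture replicate 1 and 14.8-fold without replicate 2, and the call was lost with 15 times as many tests (adjusted p 0.0819, the highest of the alternatives, which reached down to 0.00174). This probe set has the highest mean of the 3, so a rule that keeps the brightest probe set per gene reports the smallest of the Rsad2 rises. The 3 probe sets had the same direction in all arrays and differed in size. The difference between probe sets 1421008_at and 1436058_at, taken within arrays, was 2.12 larger in co-culture than in MSC alone. The two-sided exact permutation test gave p 0.2, the smallest value that this test, as computed, can give with 10 assignments of the arrays.

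Cmpk2, read by a probe set whose _a_at suffix marks probes shared by transcript variants of 1 gene, had the smallest difference of the 9. It read 4.62, 4.43 and 4.42 in MSC alone and 5.57 and 5.12 in co-culture. All values were low and the groups stood 0.51 apart, a gap that exceeds the 0.19 range of the MSC arrays and the 0.45 between the co-culture arrays. The difference was 0.86 ± 0.21 (SE), or 1.81-fold, with a 95% interval of 0.35 to 1.36 (adjusted p 0.0083 in limma, and 0.124 with 15 times as many tests, the highest of alternatives that began at 0.00499). Of the 1642 higher probe sets 31.2% had a smaller difference.

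The neighbours Rsad2 and Cmpk2 thus moved in the same direction by unequal amounts. Within each array the value of Rsad2 1436058_at minus that of Cmpk2 was 2.02, 1.94 and 1.40 in MSC alone and 4.59 and 3.18 in co-culture. The rise of Rsad2 exceeded that of Cmpk2 by 2.10 with this brightest probe set, by 3.29 with 1421009_at and by 4.22 with 1421008_at. For each of the 3 pairs the two-sided exact permutation test gave p 0.2, the smallest value it can give for 2 arrays against 3, so this test cannot place the inequality below 0.05. Without co-culture replicate 1 the excess with the brightest probe set was 1.39, and without replicate 2 it was 2.81. RMA compresses low values and gives no detection call, and Cmpk2 was low in every array. What part this had in the size of its rise was not tested. Sox11 and Rnf144a, which flank the pair, were not analysed here. The nearest analysed genes beyond them were Kidins220, lower in co-culture by a difference of -0.92, and Colec11, higher by 1.05.

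**Figure D3:**
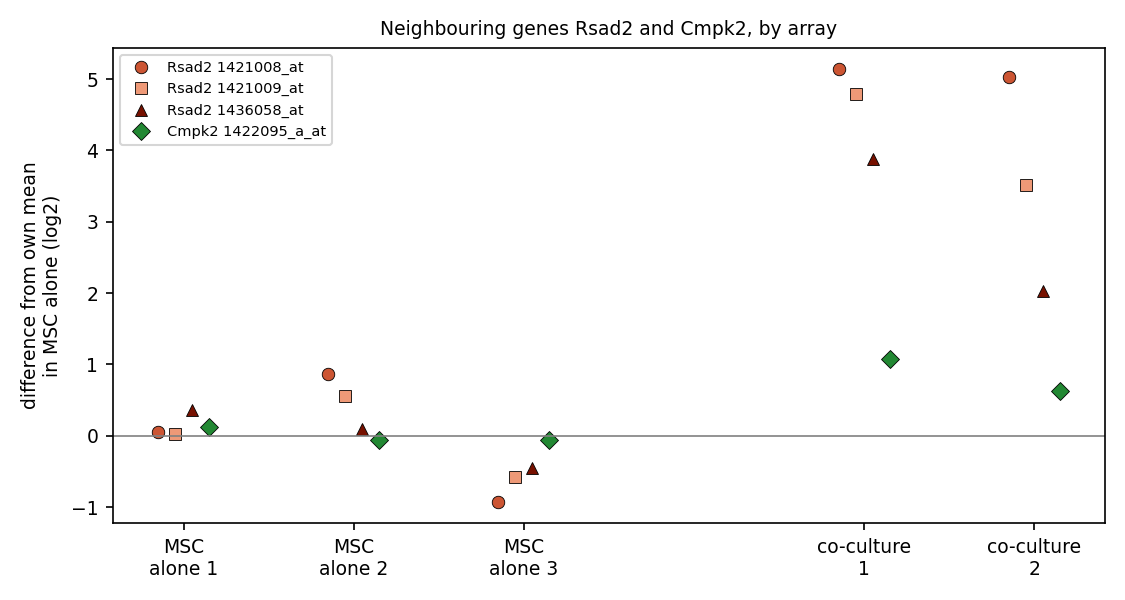
Difference of each array from the mean of MSC alone (log2, vertical axis) for the 3 probe sets of Rsad2 and the probe set of Cmpk2, in 3 arrays of MSC alone and 2 of co-culture (horizontal axis). In the co-culture arrays Rsad2 lies between 2.03 and 5.14 above its mean in MSC alone and Cmpk2 between 0.64 and 1.08.

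Replicate arrays shared an order in the members. In all 9 probe sets MSC replicate 3 was the lowest array of MSC alone, by as little as 0.001 in Cmpk2. This was so for 821 of the 1642 higher probe sets of the table and for 40.3% of all. Co-culture replicate 1 was above replicate 2 in 7 of the 9, the exceptions being Oas1a and Oas2. It was above in 28.6% of the higher probe sets. Neither order was particular to the members. Of the interferon and antiviral genes listed below, Usp18, Irf7, Ifit3 and Ifit2 had both orders, whereas Trim30a, Mx1, Zbp1 and Socs3 did not have both. The probe sets of 1 gene are not independent, and 3 of the 9 are of Rsad2. Without MSC replicate 3 all 9 were still called higher, with rises of 0.83 to 4.62.

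Listed genes of interferon signalling and its feedback were also higher in co-culture where they were in the table. Of 19 listed interferon receptor chains, kinases, transcription factors and feedback inhibitors 11 were in the table, and all 11 rose, with a median of 1.55 against -0.61 over all 2190 genes and 1.05 over the 1057 higher ones. Socs3, a feedback inhibitor among them, lost its call without moderation of the spread. Usp18, which removes ISG15 and damps the receptor, rose by 3.14 ± 0.33 (SE), and Irf7, Stat2 and Irf9 by 2.85 ± 0.32, 2.62 ± 0.17 and 2.19 ± 0.21. The other 8 were not analysed here.

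Sensors of foreign nucleic acid, which act upstream of interferon and beside OAS, gave 4 of 11 listed genes, all of which rose. Zbp1, which detects nucleic acid in the Z conformation, rose by 5.25 ± 0.84 (SE), and by 4.34 without MSC replicate 3. Dhx58 (LGP2) and Ddx58 (RIG-I), cytoplasmic RNA helicases, rose by 2.31 ± 0.50 and 1.71 ± 0.35. Dhx58 rose by 1.66 when co-culture replicate 1 was left out and by 2.96 when replicate 2 was. Zc3hav1, the zinc finger antiviral protein, rose by 1.08 ± 0.17.

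Downstream of OAS the table held 3 of 6 listed genes of the oligoadenylate system and related RNA decay, and the other 3 were not analysed here. Abce1, a ribosome recycling factor, rose by 0.76 ± 0.21 (SE). Zfp36, encoding the mRNA decay factor tristetraprolin, rose by 3.06 ± 0.51, and Dicer1, the nuclease of microRNA maturation, fell by 0.63 on the log2 scale. The call of Dicer1 was lost without MSC replicate 1 and also without co-culture replicate 2. With 3 genes in 2 directions the list has no common direction.

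Of 30 other antiviral effectors 19 were in the table and all 19 rose, with a median of 2.95. Ifit3, Ifit2, Xaf1 and Trim30a led with rises of 4.96 ± 0.68, 4.02 ± 0.31, 3.56 ± 0.65 and 3.41 ± 0.63 (SE). Leaving out MSC replicate 3 gave 4.26 for Ifit3, 2.87 for Xaf1 and 4.09 for Trim30a. The dynamin-like GTPases Mx1 and Mx2 rose by 1.69 ± 0.25 and 1.94 ± 0.20. Ifit1 and Parp14 lost the call without moderation of the spread. Read by the same rule of the brightest probe set, Rsad2 rose by 2.96, about the median of these 19, against 5.08 in its probe set 1421008_at. The differences of Oas3, Oas1b and Cmpk2 (0.98, 0.94 and 0.86) were of the size of the smallest of the 19, that of Ifitm3 at 1.01 ± 0.16, from which they differed by no more than their SE.

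The genes around viperin and Cmpk2 in metabolism went both ways, and 1133 of all 2190 genes of the table were lower in co-culture. Of 12 listed proteins linked to viperin 2 were in the table and both fell: Fdps, encoding farnesyl diphosphate synthase of the sterol pathway, fell by 0.78 and Hadhb, encoding a subunit of the mitochondrial trifunctional protein, fell by 1.04. Of 36 listed genes of pyrimidine nucleotide supply and mitochondrial DNA 9 were in the table, of which 3 rose and 6 fell, with a median of -0.99 against -0.61 over all genes. One of the 6, Tyms, lost its call with centred arrays and without MSC replicate 1 or 2. Rrm2, the S-phase subunit of ribonucleotide reductase, fell by 3.17 ± 0.40 (SE) and Dck, deoxycytidine kinase, fell by 2.10 ± 0.39. Slc25a33, a mitochondrial pyrimidine nucleotide carrier, rose by 1.43 ± 0.17 and Polg2, the accessory subunit of the mitochondrial DNA polymerase, by 1.39 ± 0.23. Cmpk1, the cytosolic kinase related to Cmpk2, was not analysed here. The brightest probe set of Rrm2 carries the suffix _x_at and that of Hadhb too, which marks probes that can bind other transcripts.

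**Figure D4:**
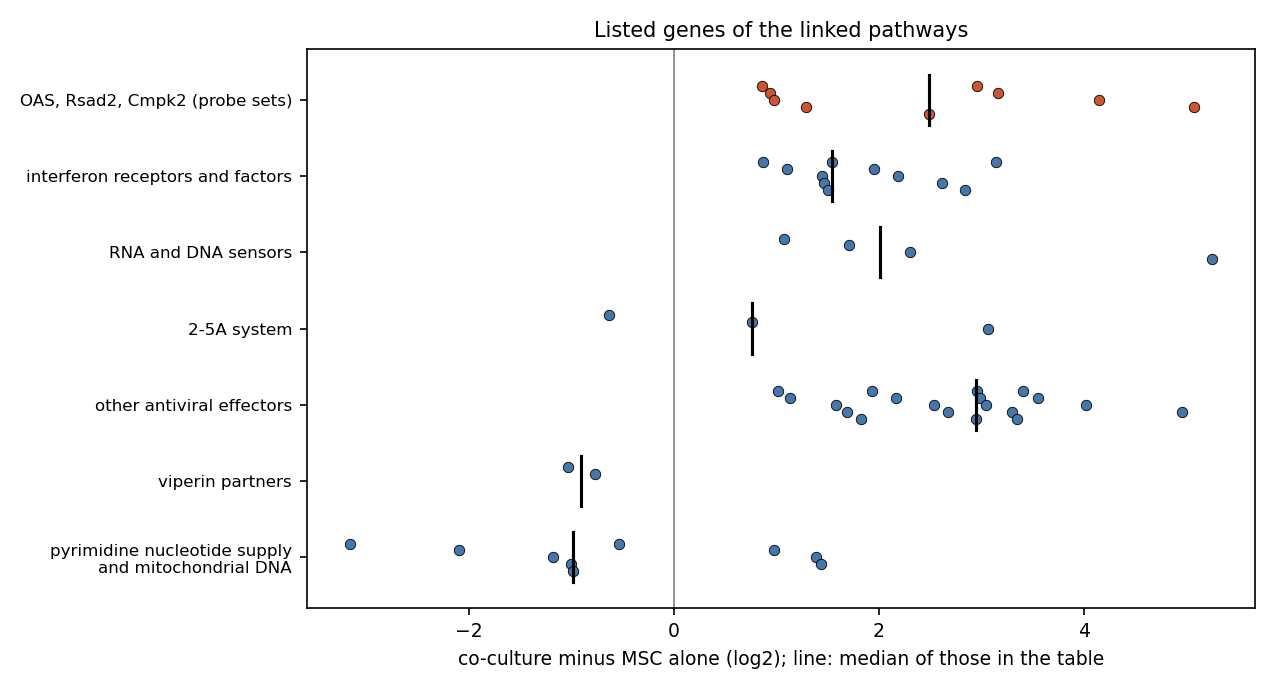
Co-culture minus MSC alone (log2, horizontal axis) for the 9 member probe sets and for the listed genes that were in the table, each by its brightest probe set; points are probe sets and lines are medians. All points of the signalling, sensor and other antiviral lists lie above 0, both viperin partners lie below it, and the nucleotide list has 3 above and 6 below.

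For each gene the 3 others with the most similar profile were found among 2183 genes, by the root mean square distance over the 5 arrays after subtracting each gene's mean in MSC alone. For Rsad2 (1436058_at) they were Herc6, Usp18 and Tmem140, at distances of 0.30, 0.34 and 0.38 on the log2 scale. Herc6 encodes a ligase that attaches ISG15, and its co-culture arrays also stood apart, with a rise of 2.08 without replicate 1 and 3.85 without replicate 2. For Oas1a they were Gng8, Ifi47 and Batf2, at 0.08, 0.20 and 0.22, and for Oas2 Dennd6b, Csf3 and 1110038F14Rik, at 0.13 to 0.17. Oasl1 was nearest to Shisa5, Gas2l1 and Acsbg1, at 0.19 to 0.22. The 3 genes with small rises lay within 0.03 to 0.07 of theirs: Ccdc162, Rdh9 and Lrch1 for Cmpk2, Map3k3, Mtdh and Lrch1 for Oas1b, and Zcchc2, Prkrip1 and Ddx51 for Oas3. The rises of these neighbours ran from 0.85 to 0.97. A distance over 5 arrays of 2 groups is mainly a likeness in the size of the difference.

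Fixed markers of cell types were read where they were in the table. They cannot settle the identity of the cells, since a marker without a difference would be missing from a table selected on this comparison. Of 15 markers of MSC and stroma 7 were in the table. Col1a1 and Col3a1 read above 12 in MSC alone. There Pdgfrb and Cd44 had means of 11.05 and 11.01, and Vcam1, Cxcl12 and Pdgfra of 9.23, 8.60 and 7.31. In co-culture 5 of the 7 were lower. The largest falls were those of Col3a1, Col1a1 and Cxcl12, with differences of -4.67, -3.94 and -3.52. Vcam1 and Pdgfra were higher (Pdgfra by 3.77, or by 3.08 without MSC replicate 3). Of 15 T cell and 5 endothelial markers 0 were in the table, so neither cell type was analysed here. Of 17 macrophage and monocyte markers 2 were in the table, and both moved with the members: Mpeg1 rose by 4.48 ± 0.26 (SE) and Ctss by 2.89 ± 0.29. The summed log2 level of these 2 was 7.48 to 8.47 in MSC alone and 14.7 to 16.05 in co-culture. Their part in the rise of the members was not tested. In bulk RNA, more cells that express a gene and more RNA per cell cannot be told apart.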

How the data were processed

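The deposited values of 5 arrays (3 of MSC alone, 2 of co-cultured MSC) are log2 probe set summaries deposited by the authors and computed with RMA, as the tool list from the submitters' processing notes records without a version; per the labels no filter on probe sets is stated. Groups came from the sample titles. Genes were named through the platform's annotation: 3013 probe sets had 1 symbol, 69 several and 291 none listed, and all 7 member genes were found in RefSeq's gene table. The fit was limma 3.58.1 (R 4.3.3; lmFit, eBayes) on all 5 arrays, without covariates or filter, two-sided, at 0.05 after Benjamini-Hochberg adjustment over 3373 probe sets; it was tested on simulated data. Errors are moderated SE or SD over arrays, and the number of arrays limits precision. Within-array differences had exact permutation tests (scipy 1.17.1). A listed gene is read from its brightest probe set. All member probe sets are named, and up to 4 genes per list by size of difference. Outside this rule and after values were seen, Mx1, Mx2, Ifitm3, Ifit1, Parp14, Socs3, Tyms and Vcam1 were named. So were Pdgfrb, Cd44, Ddx54, Ptpn11, Kidins220, Colec11, further probe sets of Zbp1, Dhx58 and Rrm2, and genes not analysed. Members, lists and tests were chosen with earlier results of these data known. Alternatives were centring, a filter on dim probe sets, other moderation, the replicate number as a block, 1 probe set per gene, more tests and leaving out each array.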

Additional observations from a re-analysis of the deposited data

How the results depend on the processing

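The 9 member probe sets were called higher when each array was centred on its median, without moderation, and with trend and robust moderation. They were also called without any 1 array of MSC alone, when 3194 to 3371 of all 3373 probe sets passed. Without either co-culture array the differences of all 9 stayed above 0. Without the dimmest 25% of probe sets 5 members were left to test and all 5 were called; with 1 probe set per gene all 7 were, of 2190 called in all. Both falls come from testing fewer probe sets. Adjusted as if 15 times as many had been tested, 4 members and 415 probe sets in all passed. Over 102 alternative values of single probe sets 97 kept their side of the threshold, 5 lost the call, all with more tests, and 0 turned direction. The excess of Rsad2 over Cmpk2 ran from 1.39 to 2.81 without 1 array, and with co-culture reduced to 1 array it had no test. With the replicate number as a block, which leaves MSC replicate 3 without a partner, all 9 members and 3365 probe sets passed. The labels do not say that numbers pair the arrays; across probe sets replicate 1 minus 2 correlated between the groups at r = 0.402. With co-culture reduced to 1 array, that array is assumed to vary like MSC alone. Centring raised every member's difference by 0.16. Low signal limits Oas3, Cmpk2, Oasl1 and Rsad2 1421009_at, whose means over the 5 arrays (4.72, 4.83, 6.17 and 6.17) lay under the 25th percentile of the table, 6.24.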
